A study of Mus musculus with 12 samples.

Results

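The Wnt family of these libraries was taken as the ligands (symbols Wnt with a number), the Frizzled receptors (Fzd with a number), the coreceptors Lrp5 and Lrp6, the secreted antagonists of the Sfrp and Dkk families with Wif1, and the feedback regulator Axin2. The members were chosen by gene symbol alone and number 41 of the 20295 genes in the count table: 19 ligands, 10 receptors, 2 coreceptors, 9 secreted antagonists and Axin2. The family itself was picked from earlier results of these same counts, in which the rise of Wnt9b in Lip+ISO over ISO stood out. The values of Wnt9b in the comparisons that hold the ISO or Lip+ISO libraries are therefore given as a description without a test. Enough counts for testing were present for 27 members: 8 ligands, 10 receptors, 2 coreceptors, 6 antagonists and Axin2. The remaining 14, among them Wnt1, Wnt3, Wnt6, Wnt7a, Wnt7b, Wnt10a, Wnt10b, Dkk1 and Wif1, are described by their counts.

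Epididymal white adipocytes (eWAs), the fat-storing cells of the gonadal fat depot, were isolated from lean male C57/BL6J mice by collagenase digestion and floatation. They were embedded in a hydrogel at 50000 cells per well and kept for 2 days, and RNA was sequenced in 12 libraries. The study asked which effects of beta-adrenergic stimulation on transcription depend on lipolysis, the breakdown of stored triglyceride. Stimulation was with isoproterenol (ISO), an agonist of all beta-adrenergic receptors, for 3 h, and the lipase inhibitors (Lip) were Atglistatin, which blocks ATGL, and CAY10499, which blocks HSL. The groups were vehicle (DMSO, neither agent), ISO alone, Lip alone and Lip+ISO, each with 3 libraries. All groups shared the animals' strain, sex and culture, and the labels name no genetic change. The labels give no animal for any library, so the p-values measure the spread between these libraries, part of which may be technical.

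Wnt proteins are secreted, lipid-modified ligands that bind Frizzled receptors. When Lrp5 or Lrp6 joins the complex, beta-catenin is spared from destruction and acts with TCF/LEF factors on target genes, whereas other ligand and receptor pairs signal without beta-catenin. Sfrp proteins and Wif1 bind the ligands, and Dkk proteins act on the Lrp coreceptors. In fat tissue the beta-catenin branch is known to hold precursor cells back from becoming adipocytes, and Wnt5a is known as a ligand that signals largely without beta-catenin.

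Library totals ranged from 22632220 to 43707557 counts, at which 3 counts corresponded to 0.0678 to 0.132 CPM (counts scaled to a common library size). Levels are given as CPM scaled by TMM factors, which lay between 0.924 and 1.07, and levels of different genes are set beside each other only as CPM per kb of counted exons. The 10 adipocyte markers, Adipoq and Plin1 among them, summed to between 28300.5 and 44606 CPM in every library. Markers of other cells were lower and not equal between groups. The 10 fibroblast and preadipocyte markers summed to 407 to 718 CPM in vehicle, 794 to 1074 in ISO, 524 to 585 in Lip and 480 to 695 in Lip+ISO, and 4 of the 10 rose in ISO against vehicle. Of all tested genes 12.3% were higher in that comparison, the share to set beside this and the marker counts below. Macrophage markers summed to 53.0 to 66.4 CPM in vehicle and 110 to 166 in ISO, where 6 of the 9 tested rose, and to 57.2 to 62.6 in Lip and 71.7 to 123 in Lip+ISO. Endothelial markers spanned 122 to 231 CPM in vehicle, 282 to 515 in ISO, 60.9 to 204 in Lip and 94.8 to 279 in Lip+ISO, with 1 of 10 higher in ISO against vehicle. Mesothelial markers spanned 29.8 to 74.7, 75.3 to 90.2, 15.3 to 128 and 48.9 to 70.5 CPM in the same order of groups, with 1 of 9 higher in ISO against vehicle. The endothelial and mesothelial counts were near the share of all genes. Smooth muscle and pericyte markers lay between 690 and 875 in all libraries. Epithelial markers were below 10 CPM in sum in all libraries but ISO replicate 3, at 28.4, and Lip replicate 3, at 125, so that these libraries stood apart before any comparison. No marker was at 0 in all libraries. RNA of other cells was thus present, and the share of each family member's signal that came from other cells was not tested.

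**Figure D1:**
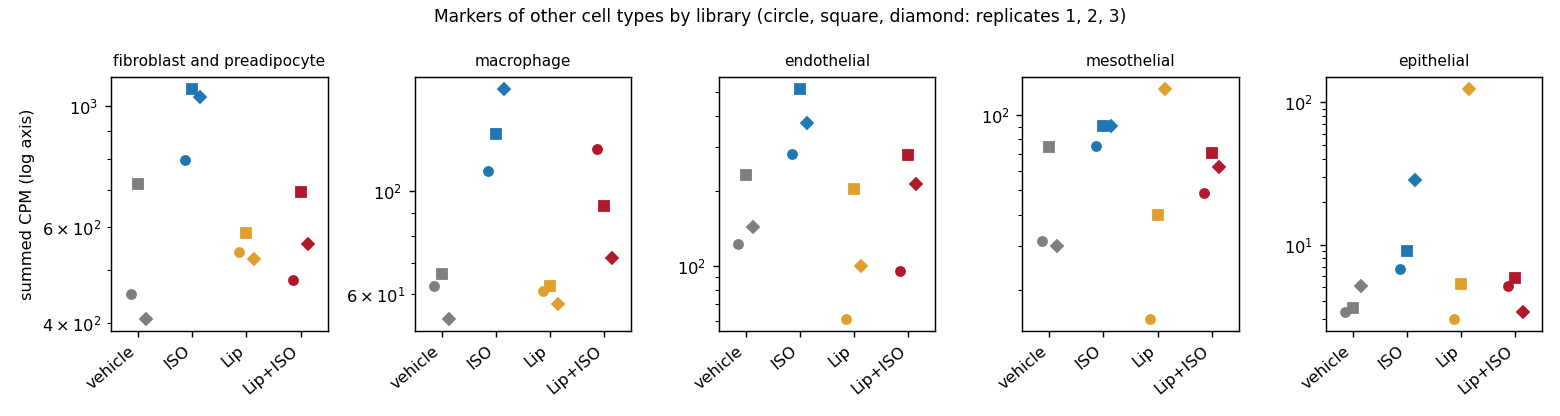
Summed CPM (vertical axes, logarithmic) of 5 marker lists of cells other than adipocytes in each library, by group, with circle, square and diamond for replicates 1, 2 and 3. Fibroblast and macrophage markers lay higher in the 3 ISO libraries than in the 3 vehicle libraries, and the epithelial sum of 125 CPM in Lip replicate 3 stood far above the other Lip libraries.

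Under ISO single members of the family changed: Wnt9b and Wnt11 rose, while Wnt5a, the receptors Fzd4 and Fzd2, the coreceptor Lrp5 and Axin2 fell. All of these but Wnt9b, which is given without a test, passed in ISO against vehicle and in the same directions in Lip+ISO against Lip. That comparison is given beside the first and not as its support. Against vehicle Wnt9b is left out of the counts. Of the other 26 tested members 4 were higher (15.4%) and 5 lower (19.2%) at an edgeR adjusted p at or under 0.05. Of all 13543 tested genes 12.3% and 13.9% were, near these shares, so the counts are not read as a result about the family. Dkk2, among the 4 higher, had enough counts for the filter only through libraries with ISO. Where the log2 fold change also had to reach 1 in either direction, 2 were higher and 4 lower, beside 5.68% and 1.80% of all genes. The 3 ISO libraries lay wholly above the 3 vehicle libraries for 6 members and wholly below for 7, where 20.7% and 22.6% of all genes did so. The median log2 fold change of the 26 was -0.08, beside 0.00 for all genes. In this bulk RNA, fewer cells of a type and less RNA per cell cannot be told apart. With the replicate number as a block the counts became 10 higher and 7 lower, beside 18.8% and 19.6% of all genes in that fit, the added members being Wnt4, Fzd5, Fzd6, Sfrp1 and Dkk3 above and Fzd8 and Lrp6 below. The number of members higher also moved with single libraries: it was 3 when vehicle replicate 1, vehicle replicate 3 or ISO replicate 2 was dropped, and 8 when vehicle replicate 2 was.

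In Lip+ISO against Lip, Wnt9b is left out of the counts. Of the other 26 tested members 1 was higher (3.85%) and 8 lower (30.8%), beside 11.5% and 15.8% of all genes. With the change of 1 on the log2 scale also required the counts were 1 and 4, beside 4.19% and 3.16%. The groups did not overlap for 2 of the 26 above and 8 below, where 17.2% and 22.0% of all genes did so, and the median was -0.12. The lower count was 5 without Lip replicate 1.

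Lip against vehicle gave no member past the threshold in either direction by edgeR, and DESeq2 gave none. In this comparison 0.00738% of all genes were higher and 0.0443% lower. At an unadjusted p under 0.05 there were 3 members, named here after their values were seen: Fzd2, Fzd4 and Fzd10. That is 3 of 27, where 4.3% of all genes had such a p. The Lip libraries lay wholly above vehicle for 4 members, Fzd2, Fzd10, Wnt9a and Wnt9b, and wholly below for Axin2, where 5.19% and 5.21% of all genes did so.

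Lip+ISO against ISO is the comparison through which the family was picked by way of Wnt9b, so Wnt9b is left out of its counts. Of the other 26 tested members 1 was higher, Wnt11, and 1 was lower, Fzd1, beside 4.36% and 4.59% of all genes. Groups did not overlap for 4 of the 26 above and 6 below, where 11.9% and 13.5% of all genes did so. The difference between the response to ISO with inhibitors and that without, called the interaction here, contains the same libraries, and Wnt9b is left out of its counts too. It passed the threshold for none of the 26 by edgeR, beside 0.901% of all genes above and 0.724% below. Unadjusted p was under 0.05 for 3 of the 26, Fzd1, Fzd5 and Lrp6, named after their values were seen, where 13.8% of all genes had such a p, and DESeq2 called Fzd1 lower. With the replicate block Fzd1 and Fzd5 were lower and none of the 26 was higher, beside 3.48% and 3.15% of all genes in that fit. Both ISO comparisons use different libraries, but Lip+ISO against ISO and the interaction share libraries with them, so the values of the comparisons are given side by side and were not used to support each other.

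**Figure D2:**
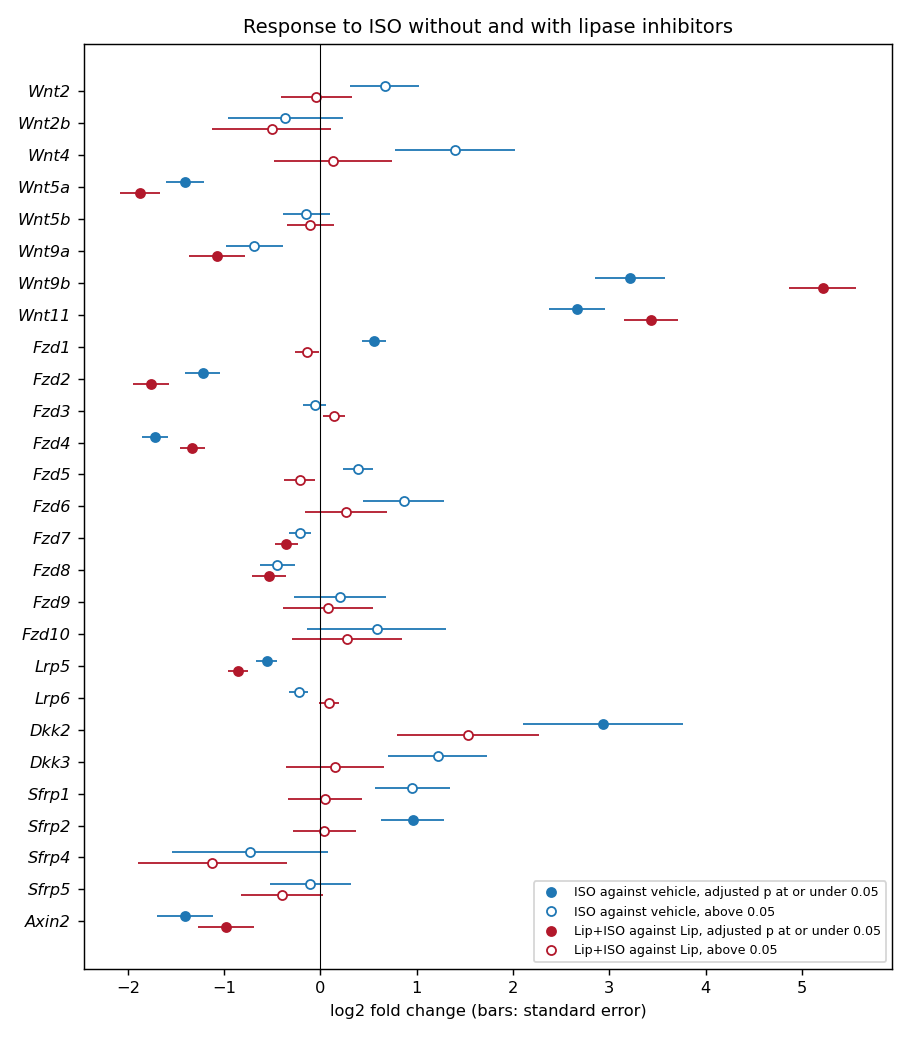
The log2 fold change (horizontal axis) of each of the 27 tested members in ISO against vehicle (blue) and in Lip+ISO against Lip (red), with bars of 1 standard error; filled points passed an edgeR adjusted p of 0.05. Wnt9b and Wnt11 stand to the right in both comparisons, Wnt5a, Fzd2, Fzd4, Lrp5 and Axin2 to the left, and Fzd1, Dkk2 and Sfrp2 are filled in ISO against vehicle alone. Wnt9b, by which the family was picked, is shown as a description.

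Wnt9b (NM_011719, mm9 chromosome 11, 103588677 to 103611135, minus strand) is a ligand known from kidney development that can act through beta-catenin. It was low without ISO, at 0.568, 0.755 and 0.822 CPM in the vehicle libraries, or 18, 18 and 21 counts, and 1.31, 0.901 and 1.19 in Lip. The ISO libraries held 10.4, 5.00 and 4.63 CPM, and the Lip+ISO libraries 32.8, 37.9 and 56.0. The 4 groups did not overlap, in the order vehicle, Lip, ISO and Lip+ISO, with vehicle and Lip the closest pair. ISO against vehicle gave 3.22 ± 0.36 on the log2 scale (SE, n = 3 per group), a 9.31-fold change. Lip+ISO against Lip gave 5.22 ± 0.34, a 37.2-fold change, and both are given without a test. These ranked 88th and 19th from the top among the 13543 tested genes. Lip against vehicle gave 0.67 ± 0.41 (adjusted p = 1.00). Lip+ISO against ISO, the comparison through which the family was picked, gave 2.67 ± 0.29 and the 8th highest log2 fold change of all genes. Leaving out replicate 1 of every group moved the value to 2.60 in ISO against vehicle and to 3.29 in Lip+ISO against ISO. The interaction, which is built on the same difference and is given without a test, was 2.00 ± 0.51, and 2.45 ± 0.37 without ISO replicate 1, the highest ISO library. In terms of level per length, 7.06% of tested genes lay below Wnt9b in vehicle and 56.4% in Lip+ISO.

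Wnt11 (NM_001285794, mm9 chromosome 7, 105983622 to 106003257, plus strand), a ligand known for signalling without beta-catenin and for cell movements in the embryo, changed in the same direction in each ISO comparison. Vehicle libraries held 2.27, 2.69 and 2.35 CPM and ISO libraries 14.4, 17.7 and 14.1. Lip libraries held 2.16, 2.87 and 5.56 CPM and Lip+ISO libraries 34.3, 33.8 and 47.7. Every ISO library was above every library without ISO, every Lip+ISO library was above every ISO library, and vehicle and Lip overlapped. The log2 fold changes were 2.67 ± 0.29 in ISO against vehicle (edgeR adjusted p = 2.7e-05), 3.43 ± 0.28 in Lip+ISO against Lip (1.5e-06) and 1.32 ± 0.25 in Lip+ISO against ISO (0.0059). Leaving out replicate 2 of every group took the last of these to an adjusted p of 0.0554. Lip replicate 3, the library with the high epithelial markers, was the highest of the Lip libraries at 5.56 CPM. Without it the log2 fold change in Lip+ISO against Lip was 3.94 and the interaction of Wnt11 was 1.28 ± 0.27 (edgeR adjusted p = 0.0452), whereas it did not pass with all 12 libraries.

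The summed markers of other cells are given beside Wnt9b and Wnt11 for 2 comparisons. The fibroblast, macrophage, endothelial, mesothelial and epithelial sums were higher in all ISO libraries than in all vehicle libraries, as were Wnt9b and Wnt11. The fibroblast, endothelial, mesothelial and epithelial sums were lower in all Lip+ISO libraries than in all ISO libraries, while Wnt9b and Wnt11 were higher there. The macrophage and smooth muscle sums of ISO and Lip+ISO overlapped. The part of other cells in Wnt9b and Wnt11 was not tested.

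The sequences before the starts of Wnt9b and Wnt11, which rose, and of Fzd4, the receptor that fell most in ISO against vehicle, are shown so that their makeup can be compared. Promoters of 27 of the 41 members were matched by symbol in RefSeq (GRCm38.p6), and each sequence is the 250 bases before the start, 5′ to 3′ on the gene's strand. Capitals mark TGACG on either strand (CGTCA where it lies on the other strand), the core of the cyclic AMP response element to which CREB binds. Wnt9b lies at chr11:103749822-103750071 on the minus strand, the starts of Wnt11 at chr7:98834862-98835111 and chr7:98838595-98838844 on the plus strand, and Fzd4 at chr7:89404116-89404365 on the plus strand.
Wnt9b: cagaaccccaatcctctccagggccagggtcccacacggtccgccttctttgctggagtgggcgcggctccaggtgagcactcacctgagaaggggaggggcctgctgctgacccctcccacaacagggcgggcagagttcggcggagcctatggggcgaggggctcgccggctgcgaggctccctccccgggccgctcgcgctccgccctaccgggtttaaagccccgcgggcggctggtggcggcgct
Wnt11 start 1: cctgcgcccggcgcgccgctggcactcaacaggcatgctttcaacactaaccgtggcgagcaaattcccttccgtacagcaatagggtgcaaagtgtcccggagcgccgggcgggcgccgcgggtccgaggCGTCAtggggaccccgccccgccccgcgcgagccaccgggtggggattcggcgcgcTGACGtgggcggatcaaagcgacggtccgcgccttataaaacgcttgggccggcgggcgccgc
Wnt11 start 2: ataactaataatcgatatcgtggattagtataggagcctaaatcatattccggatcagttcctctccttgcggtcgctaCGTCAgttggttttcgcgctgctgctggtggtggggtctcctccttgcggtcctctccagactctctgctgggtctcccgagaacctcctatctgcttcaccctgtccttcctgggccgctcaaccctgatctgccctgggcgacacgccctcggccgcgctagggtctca
Fzd4: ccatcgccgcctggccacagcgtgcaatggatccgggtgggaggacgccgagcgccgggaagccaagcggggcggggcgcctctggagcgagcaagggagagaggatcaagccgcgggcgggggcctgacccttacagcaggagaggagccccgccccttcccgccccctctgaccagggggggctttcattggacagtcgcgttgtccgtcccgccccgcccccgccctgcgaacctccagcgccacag

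The promoter at start 1 of Wnt11 held TGACG at -119 to -115 on the other strand and at -63 to -59 on the gene's strand, and start 2 held it at -171 to -167 on the other strand. The same letters occur in 17.8% of the 32851 promoters of this length. The full element TGACGTCA, which contains them, occurs in 1.55% and was in none of the 10 promoters examined, those of Wnt9a, Wnt9b, Wnt11 (2 starts), Fzd1, Fzd4, Fzd7, Axin2, Dkk2 and Sfrp2. The LEF/TCF letters CTTTGA, found in 13.8% of promoters, were at -50 to -45 of Wnt11 start 1 and at -242 to -237 of Fzd1, in each case on the other strand. The E-box CACGTG, found in 6.02%, was at -228 to -223 of Wnt9a. The DR1 repeat that PPARs bind, searched as 2 copies of AGGTCA a base apart, was found in 0.0335% of promoters and in none of these. None of these letters was present in the windows of Wnt9b, Fzd4, Axin2, Dkk2, Fzd7 or Sfrp2, which says only that they are not in these 250 bases.

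Wnt5a (NM_009524, mm9 chromosome 14, 29318659 to 29338701, plus strand) was the most abundant ligand per length without ISO. Its level was 64.6, 49.5 and 48.2 CPM in vehicle and 67.4, 48.3 and 41.0 in Lip. It was 19.5, 20.5 and 21.2 CPM in ISO and 17.9, 14.3 and 10.6 in Lip+ISO. All libraries with ISO lay below all those without, and vehicle and Lip overlapped. Wnt5a fell by 1.41 ± 0.20 on the log2 scale in ISO against vehicle (edgeR adjusted p = 2.8e-04) and by 1.87 ± 0.21 in Lip+ISO against Lip (2.0e-05). The second value was the 57th lowest of all tested genes. The Lip+ISO libraries were all below the ISO libraries, a difference that missed the threshold without the block and passed with it (-0.55, edgeR adjusted p = 0.0174).

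Wnt9a (NM_139298, mm9 chromosome 11, 59120432 to 59147054, plus strand), the closest paralog of Wnt9b, went the other way. It measured 3.82, 4.78 and 4.78 CPM in vehicle and 2.20, 2.15 and 4.02 in ISO, 5.50, 6.50 and 6.78 in Lip and 3.76, 3.34 and 1.83 in Lip+ISO. Lip+ISO lay below Lip in all libraries, by 1.07 ± 0.29 lower on the log2 scale (edgeR adjusted p = 0.0154), whereas the groups overlapped in ISO against vehicle. The call was lost in 3 of 15 fits that left out libraries, among them that without Lip+ISO replicate 3 (adjusted p = 0.0534), with adjusted p up to 0.101. Wnt4 (mm9 chromosome 4, 136833550 to 136855416, plus strand), a ligand of kidney and gonad development, varied widely between replicates. Its levels were 2.24, 7.39 and 2.62 CPM in vehicle, 6.12, 16.9 and 8.69 in ISO, 1.37, 7.21 and 10.3 in Lip and 4.65, 8.56 and 7.55 in Lip+ISO. Replicate 2 of vehicle, ISO and Lip+ISO had the highest endothelial markers of its group and held the most Wnt4. In Lip the endothelial markers were highest in replicate 2 and Wnt4 in replicate 3. Mesothelial markers were highest in the same library as Wnt4 in vehicle, Lip and Lip+ISO. In ISO replicates 2 and 3 they were about equal, at 90.1 and 90.2 CPM, and the source of Wnt4 was not tested. In ISO against vehicle it missed the threshold with all 12 libraries and no block and passed with the replicate block (1.41, edgeR adjusted p = 0.0153).

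The other tested ligands passed in no comparison. Wnt2 ranged from 1.76 to 8.65 CPM over the 12 libraries, Wnt5b from 2.82 to 5.33 and Wnt2b from 0.199 to 1.02. Wnt5b overlaps Fbxl14 on the genome, so reads of the pair may not be separable.

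Among the 11 ligands too low to test, most counts were at or near 0. Wnt3, the neighbour of Wnt9b at 24353 bp on the opposite strand with no listed gene between them, had 0, 0 and 1 counts in vehicle, 3, 1 and 4 in ISO, 1, 3 and 1 in Lip and 8, 6 and 14 in Lip+ISO. Its counts were highest in the group in which Wnt9b was highest, at a level far below it. Wnt1, Wnt3a, Wnt6, Wnt8a, Wnt16, Dkk1 and Dkk4, untested as well, also had their highest mean in Lip+ISO. The libraries of that group had the most genes with a count. A link between Wnt3 and Wnt9b was not tested. Wnt7a had 0, 2 and 52 counts in Lip and 0, 0 and 31 in ISO, Wnt7b had 6, 2 and 140 in Lip and 1, 0 and 10 in ISO, and Wnt10a had 0, 0 and 30 in Lip. These counts came from Lip replicate 3 and ISO replicate 3, the libraries with the highest epithelial markers. Dkk1 had 0 counts in every library but Lip+ISO replicates 2 and 3, with 1 and 3.

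Taken per kb of counted exons, the summed ligand level was 21.5, 21.1 and 17.1 CPM per kb in vehicle, 18.8, 22.0 and 20.7 in ISO, 22.7, 20.1 and 21.8 in Lip and 30.1, 31.3 and 38.2 in Lip+ISO. The sum in ISO lay within the range of vehicle and Lip, and the Lip+ISO libraries lay above all others. In Lip+ISO the sum holds Wnt9b, by which the family was picked, as 24.1, 26.8 and 32.5% of it. The sum and the shares that include Wnt9b are therefore a description. Wnt5a made up 69.0, 53.9 and 64.7% of that sum in vehicle, 23.9, 21.4 and 23.5% in ISO, 68.0, 55.3 and 43.3% in Lip and 13.6, 10.5 and 6.38% in Lip+ISO. Wnt9b and Wnt11 together made up 4.39, 5.37 and 6.01% in vehicle, 39.8, 34.1 and 29.5% in ISO, 4.69, 6.13 and 10.4% in Lip and 65.0, 65.7 and 77.4% in Lip+ISO. The order of the mean levels changed with it. In vehicle Wnt5a at 12.4 CPM per kb was followed by Wnt5b at 1.80 and Wnt2 at 1.77, which overlapped between libraries, whereas in Lip+ISO Wnt11 at 13.9 was followed by Wnt9b at 9.34 and Wnt5a at 3.28. The ligands other than Wnt9b and Wnt11 summed to 16.1 to 20.6 CPM per kb in vehicle, 11.3 to 14.6 in ISO, 18.8 to 21.7 in Lip and 8.61 to 10.7 in Lip+ISO, lower in every library with ISO than in every library without.

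**Figure D3:**
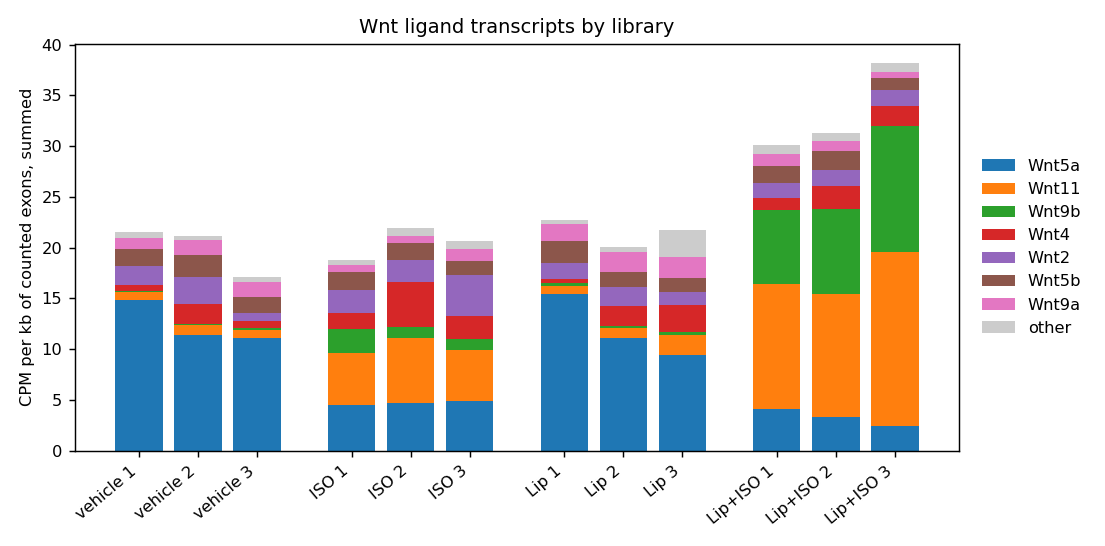
Summed level of the 19 Wnt ligands (vertical axis, CPM per kb of counted exons) in each of the 12 libraries, divided by ligand. Wnt5a (blue) fills 43.3 to 69.0% of the bars without ISO, and Wnt11 (orange) with Wnt9b (green) fills 29.5 to 39.8% of the ISO bars and 65.0 to 77.4% of the Lip+ISO bars. The bars include Wnt9b, by which the family was picked.

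Fzd4 (NM_008055, mm9 chromosome 7, 96552876 to 96558620, plus strand), a receptor known from retinal vessel growth, was the most abundant Frizzled in vehicle. Its levels were 432, 356 and 398 CPM in vehicle and 144, 99.8 and 116 in ISO. They were 372, 303 and 288 CPM in Lip and 123, 130 and 131 in Lip+ISO. All libraries with ISO were below all libraries without it, and the groups with and without inhibitors overlapped in both pairs. Fzd4 fell by 1.72 ± 0.14 on the log2 scale in ISO against vehicle, the 45th lowest value of all tested genes, and by 1.33 ± 0.13 in Lip+ISO against Lip. Its promoter, printed above, holds none of the letters searched. Its level per length had 95.1% of tested genes below it in vehicle and 81.7% in ISO.

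Fzd2 (NM_020510, mm9 chromosome 11, 102465745 to 102469372, plus strand), a receptor for Wnt5a among others, had 11.2, 11.1 and 10.8 CPM in vehicle and 4.40, 5.92 and 3.72 in ISO, 15.2, 15.1 and 15.9 in Lip and 5.62, 4.11 and 3.89 in Lip+ISO. Its replicates without ISO were close together, and Lip lay above vehicle in all libraries without passing the threshold. It fell by 1.22 ± 0.18 in ISO against vehicle (edgeR adjusted p = 3.8e-04) and by 1.76 ± 0.18 in Lip+ISO against Lip, both on the log2 scale.

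Fzd1 (NM_021457, mm9 chromosome 5, 4753839 to 4758216, minus strand) was the receptor that rose. It measured 98.5, 108 and 86.6 CPM in vehicle, 117, 154 and 161 in ISO, 97.8, 91.0 and 91.4 in Lip and 74.5, 85.6 and 93.9 in Lip+ISO. The ISO libraries were above all others, and Lip+ISO overlapped Lip. Fzd1 rose by 0.56 ± 0.13 on the log2 scale in ISO against vehicle (edgeR adjusted p = 0.0060) and was lower in Lip+ISO than in ISO by 0.77 ± 0.13 (adjusted p = 0.0023). The interaction, at -0.70, missed the threshold with an edgeR adjusted p of 0.0749 and passed with the replicate block (0.0264), and it was -0.83 ± 0.15 (adjusted p = 0.0185) without ISO replicate 1, the lowest ISO library. The ISO call was lost when replicate 2 or replicate 3 was left out of every group, at adjusted p of 0.0588 and 0.105, and the Lip+ISO call when replicate 2 was, at 0.0690.

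Fzd7 and Fzd8 were lower in Lip+ISO than in Lip by small amounts. Fzd7 (mm9 chromosome 1, 59538991 to 59543799, plus strand) had 38.8, 37.5 and 33.5 CPM in vehicle, 27.1, 34.0 and 33.5 in ISO, 39.6, 36.3 and 32.7 in Lip and 31.2, 29.0 and 24.7 in Lip+ISO, and its log2 fold change of -0.35 ± 0.12 (edgeR adjusted p = 0.0422) was lost in 9 of 15 fits that left out libraries. Fzd8 (mm9 chromosome 18, 9212854 to 9216199, plus strand) had 11.5, 11.7 and 11.0 CPM in vehicle, 6.25, 9.16 and 9.64 in ISO, 11.7, 12.4 and 10.2 in Lip and 6.95, 7.04 and 9.61 in Lip+ISO, and its value of -0.54 ± 0.18 (edgeR adjusted p = 0.0416) was lost in 9 of 15. Leaving out Lip replicate 1 alone took the adjusted p to 0.187 for Fzd7 and 0.110 for Fzd8. Fzd8 was also lower in all ISO libraries than in all vehicle libraries and passed there with the replicate block (-0.46, edgeR adjusted p = 0.0481).

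Fzd5 and Fzd3 did not pass in the unblocked fit. Fzd5 had 24.8, 21.9 and 28.2 CPM in vehicle, 34.5, 28.8 and 35.0 in ISO, 28.0, 22.8 and 28.4 in Lip and 25.2, 17.1 and 25.9 in Lip+ISO. The ISO libraries were above all others, and with the replicate block Fzd5 was higher in ISO against vehicle by 0.40 (edgeR adjusted p = 0.0031). With the block it was lower in Lip+ISO than in ISO (-0.54, edgeR adjusted p = 0.0010). Its interaction of -0.61 ± 0.23 had an edgeR adjusted p of 0.250, and with the block it was -0.62 (0.0111). Fzd3 stayed between 10.8 and 14.9 CPM in all 12 libraries. Fzd6 ranged from 1.06 to 7.58 CPM, with the highest value in ISO replicate 2, and passed in ISO against vehicle with the replicate block (0.83, edgeR adjusted p = 0.0463). Fzd9 and Fzd10 were low, at 0.334 to 1.19 and 0.0783 to 0.581 CPM.

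The summed Frizzled level was lower in every library with ISO than in every library without. It was 160, 141 and 147 CPM per kb in vehicle, 82.2, 81.2 and 86.7 in ISO, 145, 124 and 120 in Lip and 66.3, 69.0 and 72.5 in Lip+ISO. Fzd4 supplied 73.3, 68.5 and 73.4% of it in vehicle and 47.7, 33.4 and 36.3% in ISO, 69.6, 66.3 and 65.1% in Lip and 50.3, 51.1 and 48.9% in Lip+ISO. The share of Fzd1 went from 13.4 to 17.5% in vehicle to 32.5 to 43.4% in ISO, and from 15.4 to 17.4% in Lip to 25.7 to 29.6% in Lip+ISO. In ISO replicates 2 and 3 Fzd1 was the most abundant Frizzled per length, and in the other 10 libraries Fzd4 was.

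**Figure D4:**
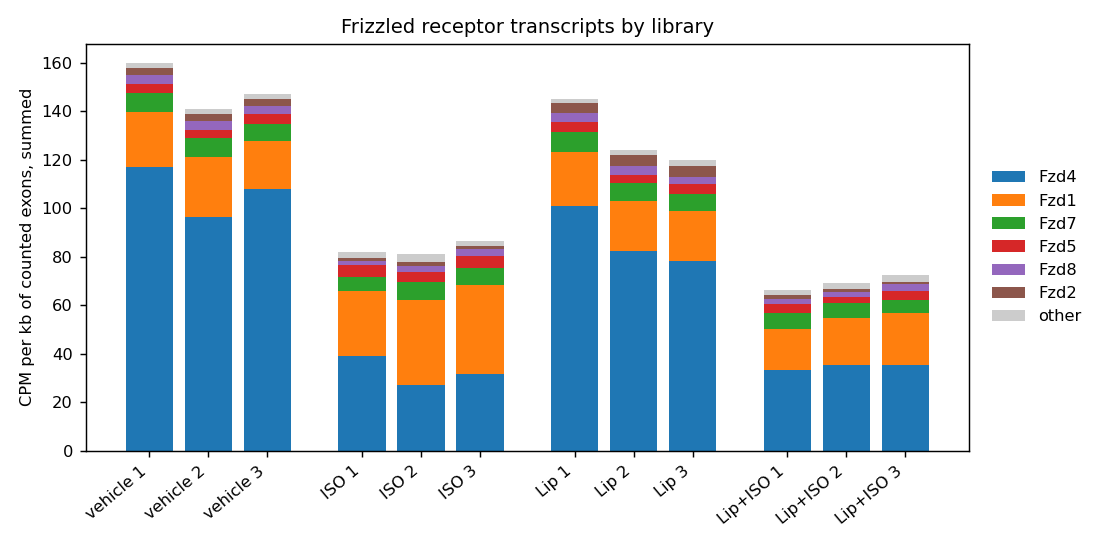
Summed level of the 10 Frizzled receptors (vertical axis, CPM per kb of counted exons) in each of the 12 libraries, divided by receptor. The bars with ISO, at 66.3 to 86.7, are lower than those without, at 120 to 160, and the lost height is mostly Fzd4 (blue).

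Of the coreceptors, Lrp5 (NM_008513, mm9 chromosome 19, 3584825 to 3686564, minus strand) fell and Lrp6 (mm9 chromosome 6, 134396496 to 134516931, minus strand) did not pass. Lrp5 had 188, 153 and 161 CPM in vehicle, 127, 112 and 102 in ISO, 190, 154 and 164 in Lip and 88.5, 95.4 and 96.7 in Lip+ISO. Every library with ISO was below every library without it. Lrp5 fell by 0.56 ± 0.11 on the log2 scale in ISO against vehicle (edgeR adjusted p = 0.0023) and by 0.86 ± 0.11 in Lip+ISO against Lip. With the replicate block it was also lower in Lip+ISO than in ISO (-0.27, edgeR adjusted p = 0.0481). Lrp6 had 168, 145 and 153 CPM in vehicle, 139, 116 and 143 in ISO, 163, 143 and 135 in Lip and 166, 147 and 156 in Lip+ISO. Its ISO libraries lay below vehicle by a small step that passed with the replicate block (-0.23, edgeR adjusted p = 0.0261). With the block Lrp6 was also higher in Lip+ISO than in ISO (0.24, edgeR adjusted p = 0.0365). Per length, Lrp5 was the more abundant in vehicle, at 32.3 against 16.6 CPM per kb, and the pair was closer in Lip+ISO, at 18.1 against 16.7.

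The secreted antagonists were low, and without the block 2 of them passed, both higher in ISO against vehicle and neither in another comparison. With the replicate block Sfrp2 was also lower in Lip+ISO than in ISO (-0.82, edgeR adjusted p = 0.0239). Sfrp2 (mm9 chromosome 3, 83570243 to 83578236, plus strand), a ligand-binding antagonist made by stromal cells, had 3.54, 6.76 and 4.46 CPM in vehicle, 8.81, 11.5 and 8.17 in ISO, 6.11, 6.41 and 3.60 in Lip and 3.44, 7.97 and 5.08 in Lip+ISO. It rose by 0.96 ± 0.33 on the log2 scale in ISO against vehicle (edgeR adjusted p = 0.0468). The call was lost in 11 of 15 fits that left out libraries, among them the omission of vehicle replicate 1 or 3 or of any ISO library, with adjusted p up to 0.169. Dkk2 (mm9 chromosome 3, 131748256 to 131843268, plus strand), which acts on the Lrp coreceptors, rose by 2.93 ± 0.83 (edgeR adjusted p = 0.0205) from 0, 6 and 1 counts in vehicle to 9, 46 and 15 in ISO, and had 0.137, 0.129 and 0.304 CPM in Lip and 0.566, 0.815 and 0.318 in Lip+ISO. Dkk2 had enough counts for the filter only through libraries with ISO, where it was high. With ISO and vehicle alone it did not enter the fit, so its adjusted p is not taken as support. With so few counts the value depended on single libraries, and it was 5.01 without vehicle replicate 2. The call was lost in 5 of 15 fits that left out libraries, with adjusted p up to 0.140: dropping vehicle replicate 1 gave an adjusted p of 0.0746, dropping vehicle replicate 3 gave 0.0937 and dropping ISO replicate 2 gave 0.0915.

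Sfrp1 had 3.13, 7.51 and 3.88 CPM in vehicle, 6.65, 12.5 and 8.69 in ISO, 6.46, 8.85 and 3.71 in Lip and 5.26, 9.19 and 5.16 in Lip+ISO. Dkk3, a family member not known to block the coreceptors in the way of Dkk1, had 1.52, 6.34 and 1.72 CPM in vehicle, 4.58, 10.3 and 7.09 in ISO, 2.13, 3.64 and 5.37 in Lip and 3.07, 5.37 and 3.97 in Lip+ISO. Replicate 2 of vehicle and of ISO was the highest of its group for Sfrp1, Sfrp2 and Dkk3 alike, and so were its summed fibroblast and endothelial markers. In ISO against vehicle Sfrp1 and Dkk3 missed the threshold in edgeR with all 12 libraries and no block and passed with the replicate block (0.99, edgeR adjusted p = 0.0030, and 1.31, adjusted p = 0.0100), and DESeq2 gave adjusted p of 0.0405 and 0.0453. Sfrp4 and Sfrp5 ranged from 0.0794 to 1.03 and from 1.41 to 4.58 CPM and passed in no comparison. Sfrp1, Sfrp2, Dkk2 and Dkk3 had their highest group mean in ISO, where the summed fibroblast markers, at 794 to 1074 CPM, were above those of every other library, and the part of other cells in these values was not tested.

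Axin2 (NM_015732, mm9 chromosome 11, 108781663 to 108812095, plus strand), a scaffold of the complex that destroys beta-catenin and a widely used target gene of that branch, fell with ISO. It had 16.4, 12.9 and 14.2 CPM in vehicle, 3.08, 5.09 and 8.30 in ISO, 12.3, 12.1 and 11.4 in Lip and 4.08, 6.63 and 7.39 in Lip+ISO. All libraries with ISO were below all libraries without, and ISO and Lip+ISO overlapped. Axin2 fell by 1.40 ± 0.29 on the log2 scale in ISO against vehicle (edgeR adjusted p = 0.0037), a 2.64-fold decrease, and by 0.98 ± 0.29 in Lip+ISO against Lip (0.0225), a 1.98-fold decrease. Lip against vehicle gave -0.28 ± 0.28 (adjusted p = 1.00), Lip+ISO against ISO 0.14 ± 0.29 (0.816) and the interaction 0.42 ± 0.41 (0.708). The ISO call was lost without replicate 2 of every group, at an adjusted p of 0.0565. The Lip+ISO call was lost in 5 of 15 fits, among them those without Lip replicate 1, Lip replicate 2 and Lip+ISO replicate 1, at 0.0617, 0.0506 and 0.0779.

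**Figure D5:**
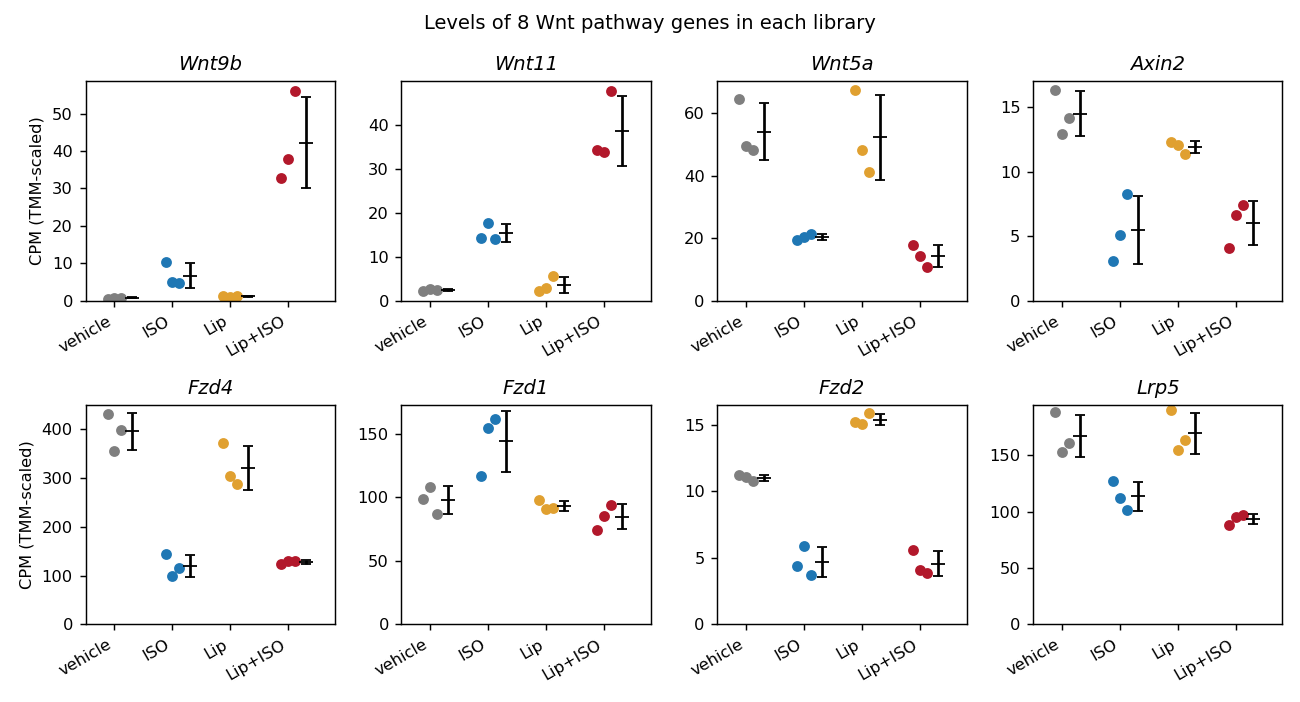
CPM (vertical axes, linear from 0) of 8 family members in each library, with the group mean and SD (n = 3) beside the points. Wnt9b and Wnt11 are highest in Lip+ISO, Wnt5a, Axin2, Fzd4, Fzd2 and Lrp5 are lower in both groups with ISO, and Fzd1 is highest in ISO alone.

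The other genes of the pathway, 82 in 7 lists of which 72 could be tested, are counted beside all genes. In ISO against vehicle 12 were higher and 11 lower (16.7% and 15.3%, beside 12.3% and 13.9% of all genes), and in Lip+ISO against Lip 9 and 12 (12.5% and 16.7%, beside 11.5% and 15.8%). In Lip against vehicle none passed in edgeR, beside 0.00738% and 0.0443%, and in Lip+ISO against ISO 8 were higher and 8 lower (11.1% each, beside 4.36% and 4.59%). Their median log2 fold changes were 0.12, -0.10, 0.01 and -0.18, beside medians between -0.01 and 0.00 for all genes. The counts by list, here and in the paragraphs below, are for ISO against vehicle and are to be read beside the 12.3% and 13.9% of all genes. Of the genes for secretion and release 0 of 3 passed. Wls, which carries Wnt proteins to the cell surface, had 109 ± 8.95 CPM in vehicle (SD, n = 3), 123 ± 9.22 in ISO, 112 ± 7.88 in Lip and 120 ± 11.3 in Lip+ISO, and passed in ISO against vehicle with the replicate block (edgeR adjusted p = 0.0274). Among the other secreted modulators 1 of 4 rose, Igfbp4, and among other receptors and membrane regulators 2 of 12 rose, Ptk7 and Gpr124, and 1 fell, Znrf3, a ligase that removes Frizzled from the membrane.

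In the list of the destruction complex and Dishevelled, 4 of 22 rose and 5 fell. Frat1, which inhibits GSK3, fell from 5.94 ± 0.61 CPM in vehicle to 1.46 ± 0.30 in ISO (log2 -2.03 ± 0.27, edgeR adjusted p = 1.8e-04), and Lip+ISO against Lip gave -1.79 ± 0.27. Dact1, a regulator of Dishevelled, rose by 1.81 ± 0.41 (edgeR adjusted p = 0.0063) and by 1.67 ± 0.40 in Lip+ISO against Lip. Amer1, which recruits APC to the membrane, fell by 1.21 ± 0.15 in Lip+ISO against Lip. Gsk3b and Apc were among the genes that fell in ISO against vehicle. Ctnnb1, which encodes beta-catenin, was at 607 ± 35.4 CPM in vehicle, 671 ± 45.1 in ISO, 595 ± 29.7 in Lip and 686 ± 37.9 in Lip+ISO. It passed in no comparison in edgeR with TMM scaling, all 12 libraries and no block, and passed in Lip+ISO against Lip with the block (edgeR adjusted p = 0.0129).

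Of the nuclear factors 3 of 14 fell in ISO against vehicle and 0 rose. Bcl9l, a coactivator of beta-catenin, fell from 169 ± 17.3 to 81.4 ± 9.72 CPM (log2 -1.05 ± 0.14, edgeR adjusted p = 1.9e-04), and Tcf7l2, the main TCF factor of many tissues, fell from 58.5 ± 5.33 to 41.1 ± 8.69 CPM (-0.51 ± 0.13, adjusted p = 0.0142). The Tcf7l2 call was lost in 5 of 15 fits, among them those without vehicle replicate 1, ISO replicate 2 and ISO replicate 3. Without the block neither Bcl9l nor Tcf7l2 passed in Lip+ISO against Lip, where Bcl9 rose and Tcf7l1 and Cby1 fell. Bcl9l was higher in Lip+ISO than in ISO. In the planar polarity list 3 of 9 rose and 1 fell, with Daam2, a formin that links Dishevelled to actin, up by 1.21 ± 0.25 and by 1.00 ± 0.25 in Lip+ISO against Lip, and Vangl2, a membrane protein of cell polarity, up by 1.15 ± 0.32. The Vangl2 call was lost in 6 of 15 fits, among them those without vehicle replicate 1, vehicle replicate 3 and ISO replicate 2.

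The list of transcriptional targets did not move one way. In ISO against vehicle 3 of 15 rose, Fosl1, Cd44 and Nkd1, and 2 fell, Znrf3 and Id2, while 10 did not pass. Fosl1, an AP-1 subunit that many stimuli induce, rose from 41.2 ± 7.58 to 205 ± 24.2 CPM (log2 2.32 ± 0.18, edgeR adjusted p = 1.8e-06), and to 357 ± 51.4 in Lip+ISO (3.33 ± 0.19 against Lip). Cd44, an adhesion receptor also made by leukocytes, rose by 1.07 ± 0.13. Myc, a growth regulator, was at 54.4 ± 3.91 CPM in vehicle, 65.8 ± 3.00 in ISO, 58.2 ± 3.93 in Lip and 26.8 ± 4.08 in Lip+ISO, lower by 1.12 ± 0.11 against Lip and by 1.29 ± 0.11 against ISO. Nkd1, a feedback inhibitor that binds Dishevelled, was at 5.64 ± 0.47, 9.51 ± 1.03, 6.36 ± 0.82 and 4.94 ± 0.52 CPM in the same order of groups. Frzb, a secreted antagonist related to the Sfrp proteins, was lower in Lip+ISO than in ISO by 1.56 ± 0.38 (edgeR adjusted p = 0.0242) at levels under 2 CPM, and this call was lost without ISO replicate 1, Lip+ISO replicate 1 or Lip+ISO replicate 3. Axin2 and Fosl1, both counted as targets of the pathway, thus moved in opposite directions in both ISO comparisons.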

How the data were processed

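RNA-seq of 12 libraries of cultured mouse eWAs was analysed from the deposited table of raw read counts per gene. Per the study's methods and the labels, the authors aligned reads to mm9 with STAR 2.4.2a and counted exon reads of RefSeq genes with HOMER and iRNA-seq, and the deposited counts carry no normalization. The stimulus was taken as ISO from the sample titles, although a figure legend of the study names another agent. The deposited length of counted exons gave CPM per kb. Coordinates are those of the table.

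Genes passing filterByExpr (13543 of 20295) were fitted in edgeR 4.0.16 (R 4.3.3) with TMM scaling, 1 mean per group and the quasi-likelihood F-test (two-sided), with Benjamini-Hochberg adjustment over all tested genes and a threshold of 0.05. The code was tested on simulated data. The members, lists and rule for named genes were chosen with earlier results of these data known. Named members had at least 10 CPM in a library or passed in a comparison, with Wnt9b, Axin2, Lrp5 and Lrp6 always named; log2 fold changes are given where they passed, and for Wnt9b and Axin2 throughout. Other pathway genes were named when they passed with a log2 fold change of 1 or more in either direction, plus Ctnnb1, Tcf7l2 and Wls.

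Groups and replicate numbers came from the titles. Deviations of same-numbered libraries from their group means correlated at 0.140 to 0.331 for ISO and vehicle, 0.192 to 0.298 for Lip+ISO and Lip and 0.197 to 0.369 for Lip and vehicle. Numbers were therefore read as pairs there and in the interaction of both ISO responses. For Lip+ISO and ISO the correlations were 0.0373 to 0.311, and the same pairs were kept. The main fit, from which the main counts and calls come, leaves these pairs out, and blocked values are given where a call changed. Alternatives were RLE scaling, library totals, no filter, DESeq2 1.42.0, the compared groups alone, the replicate block and 15 fits without libraries.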

Additional observations from a re-analysis of the deposited data

Results flagged for a closer look

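Among all members and pathway genes, the interaction, the log2 change of Lip+ISO over Lip minus that of ISO over vehicle, passed an edgeR adjusted p of 0.05 for 3 pathway genes outside the ligand, receptor and antagonist families. Myc had an interaction of -1.39 ± 0.15 (SE, edgeR adjusted p = 7.6e-04), with ISO libraries at 65.8 ± 3.00 CPM (SD, n = 3) and Lip+ISO libraries at 26.8 ± 4.08. Nkd1 had -1.12 ± 0.23 (edgeR adjusted p = 0.0270), a value that lost the threshold in 10 of 15 fits without libraries. Lgr4, a receptor for R-spondins, had 0.66 ± 0.12 (edgeR adjusted p = 0.0137) and lost it in 2 of 15, those without replicate 2 and without replicate 3 of every group, and Myc lost it without replicate 2.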

How the results depend on the processing

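The 28 log2 fold changes given for members took 585 values under the alternatives, of which 526 kept direction and side of the threshold, 53 lost the threshold, 4 gained it and 2 changed sign. The sign changes were those of Axin2 in Lip+ISO against ISO, at -0.14 without ISO replicate 1 and -0.02 without Lip+ISO replicate 3, in a range of -0.14 to 0.54 over the fits without libraries, and the cause was not tested. With Wnt9b counted, 5 members were higher in ISO against vehicle. Beside these the replicate block gave 10, a log2 fold change of at least 1 gave 3 and fits without libraries gave 2 to 8. Beside the 8 lower in Lip+ISO against Lip, a log2 fold change of at least 1 gave 4 and fits without libraries 4 to 8. In Lip+ISO against ISO the call of Wnt11 was lost without replicate 2 of every group, and the 1 lower became 3 with library totals, 2 with DESeq2, 0 with a log2 fold change of at least 1 and 0 to 2 without libraries. The same-numbered libraries of these 2 groups correlated at 0.0373 to 0.311. With the block Lrp6 was also higher there, and Fzd1, Fzd5, Wnt5a, Sfrp2 and Lrp5 were lower. For the interaction, with none called in the main fit, DESeq2 called Fzd1 lower and the block called Fzd1 and Fzd5 lower. Without ISO replicate 1 Fzd1 was lower, and without Lip replicate 3 Wnt11 was higher. Wnt9b, by which the family was picked, is left out of these results for Lip+ISO against ISO and the interaction. In Lip+ISO against Lip and Lip against vehicle the block changed no call of a member.

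The 14 untested members had too few counts for the filter, and counting error alone makes values near 3 counts uncertain. With 3 libraries per group the calls at adjusted p near 0.05, Sfrp2, Fzd7 and Fzd8, did not hold under small changes of the samples.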
